A study of Homo sapiens with 5 samples.

Results

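The microRNA processing genes are the 9 genes DROSHA, DGCR8, XPO5, DICER1, TARBP2, AGO1, AGO2, AGO3 and AGO4, chosen by name from the pathway that makes microRNAs, and they are 9 of 48829 genes to which a transcript could be assigned. Their RNA was measured in WI-38 cells, a line of human diploid lung fibroblasts that stops dividing after a limited number of population doublings. Total RNA was taken from 5 groups: late-passage cells (population doubling level, PDL, of 55), AUF1 siRNA, HuR siRNA and control siRNA, each transfected at PDL 15, and early-passage cells at PDL 15 for which no siRNA is named. All groups were this 1 line in DMEM with serum, and no other genetic change is named. Each group was 1 library, so no value below has a replicate check, no test was possible, and every ratio compares 2 libraries rather than 2 conditions.

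A microRNA begins as a hairpin in a long primary transcript. The nuclease DROSHA and its RNA-binding partner DGCR8, together the microprocessor, cut the hairpin out in the nucleus, exportin-5 (XPO5) carries it to the cytoplasm, and DICER1 with its partner TRBP (TARBP2) trims it to a short duplex. One strand of that duplex is loaded into an Argonaute protein (AGO1 to AGO4), which it guides to mRNAs with matching sites. AUF1 and HuR are RNA-binding proteins that recognise AU- and U-rich stretches, and the DICER1 mRNA has been described as a target of AUF1. The question is therefore where these genes stood with each siRNA and in late-passage cells.

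Depth differed between libraries. The median coverage for each unit of FPKM, a stand-in for depth, was 1.29 at PDL 55, 1.25 with AUF1 siRNA, 1.14 in the library labelled HuR siRNA and 1.26 at PDL 15, but 0.300 with control siRNA. In the control siRNA library 62.5% of fragment mass (FPKM times transcript length in kb, summed) lay in transcripts without a gene, against 9.70% to 14.7% in the other libraries. Those under 100 nt alone held 59.9% of fragment mass with control siRNA, against 4.09% to 8.05% in the other libraries. HNRNPD, the gene of AUF1, was at 25.2 FPKM after AUF1 siRNA, against 61.2 in the control siRNA library, with bounds that did not overlap. It was at 42.3 at PDL 55, 120.3 in the library labelled HuR siRNA and 119.1 at PDL 15. Bounds at PDL 55 and with control siRNA both lay below those at PDL 15. The log2 ratio of PDL 55 to PDL 15, as defined below, was -1.14 for HNRNPD. ELAVL1, the gene of HuR, was at 14.8 in the library labelled HuR siRNA and 11.8 with control siRNA with overlapping bounds, so its RNA gives no check of that label. On annotated transcripts alone ELAVL1 was at 9.72 and 11.8. The 9 fibroblast markers summed to 1655 to 10880 FPKM, although COL1A1 was listed at 0 in the library labelled HuR siRNA and VIM at 0 with control siRNA. The 5 epithelial markers summed to at most 2.15 FPKM, the 5 blood markers to at most 5.37, both highest with control siRNA, and the endothelial list to 7.02 to 26.7, nearly all of it from TEK.

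Levels are FPKM (fragments per kilobase, relative to all fragments of the library) summed over all transcripts of a gene, and ratios are log2((FPKM + 1)/(FPKM + 1)) minus the median ratio of the 13864 genes kept. A gene was kept if its mean over the libraries reached 1 FPKM, no transcript had the status FAIL and it was no small RNA gene, and it was counted as higher or lower when it was at least 2-fold from the median gene. Of the 9 genes 8 were kept. DGCR8 was not, because of FAIL transcripts at PDL 55. Short transcripts weigh heavily in a summed FPKM, so fragment mass and the FPKM of long transcripts, those with at least 50% of the length of the longest annotated transcript, are given beside it. Strand was not stated, so reads from overlapping or antisense genes cannot be told apart. In bulk RNA, fewer cells with an RNA and less of it per cell cannot be told apart either.

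The 9 genes spanned a wide range of levels. AGO2 had the highest summed FPKM in 4 of the 5 libraries and DICER1 at PDL 55, while on long transcripts AGO2 led in all 5. TARBP2 and AGO4 held the lowest ranks in every library, with 1.19 to 3.27 FPKM for TARBP2 and 1.34 to 3.04 for AGO4. At PDL 15 these 2 genes did not differ beyond their bounds, which were 1.51 to 2.20 for TARBP2 and 1.63 to 2.01 for AGO4.

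**Figure D1:**
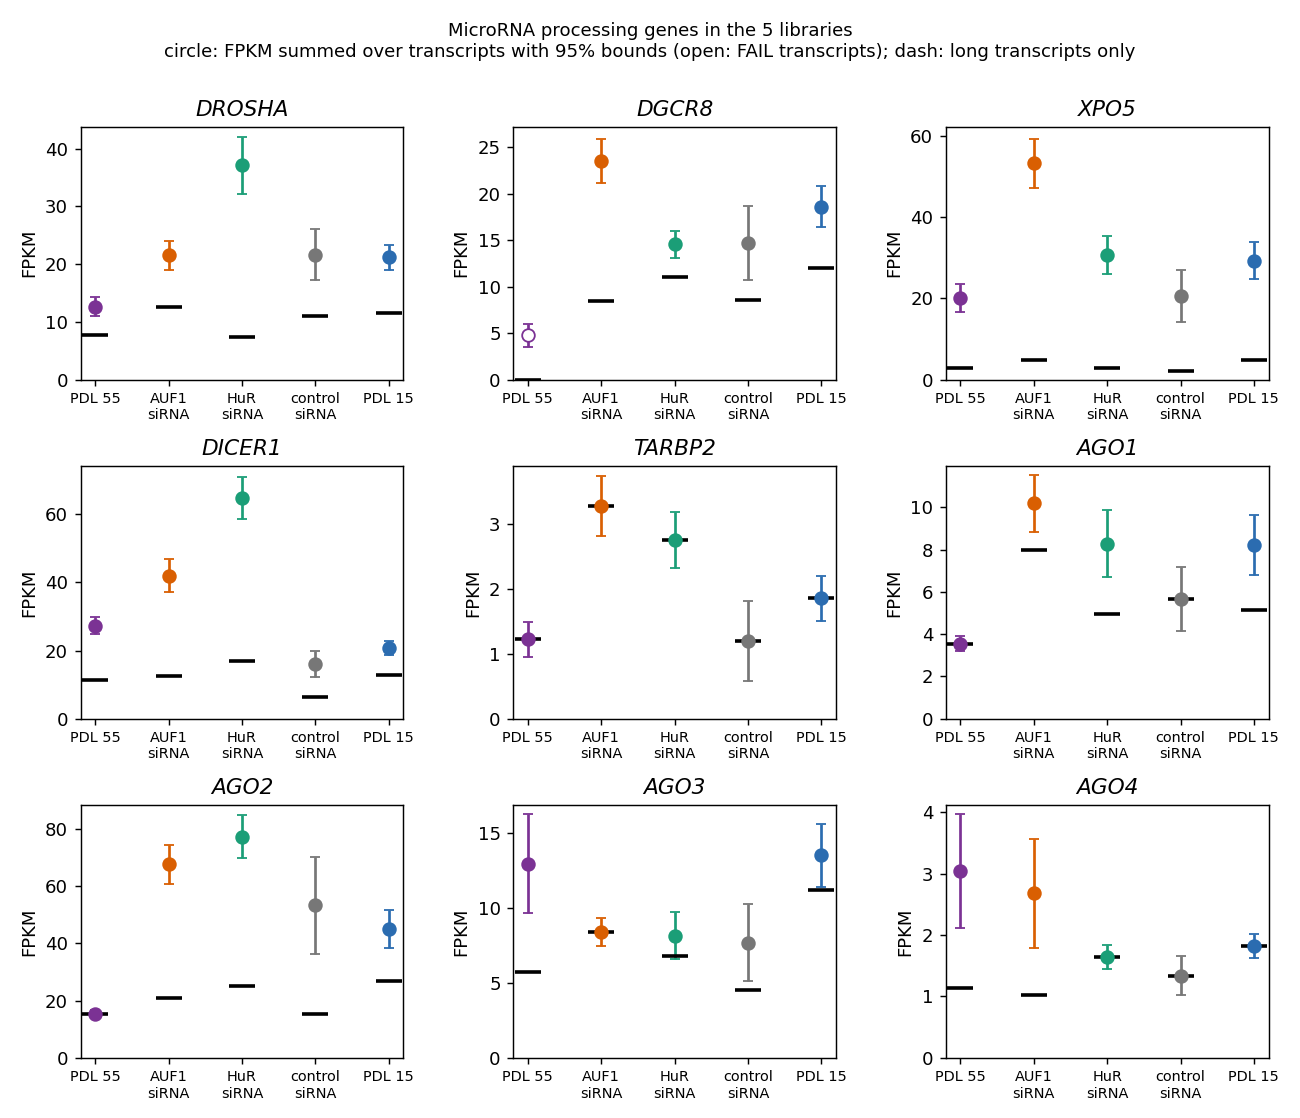
FPKM of each microRNA processing gene (y axis) in each of the 5 libraries (x axis). Circles are FPKM summed over transcripts with the deposited 95% bounds, the open circle is a value with FAIL transcripts, and dashes are long transcripts only. The circles of DICER1, XPO5 and AGO2 lie far above their dashes in most libraries, while those of TARBP2 lie on them.

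DROSHA (ENSG00000113360, hg19 chr5:31400604-31532303), the nuclease of the microprocessor, was at 12.7 FPKM at PDL 55, 21.6 with AUF1 siRNA, 37.1 in the library labelled HuR siRNA, 21.6 with control siRNA and 21.2 at PDL 15. PDL 55 was the low library and the one labelled HuR siRNA the high one, with the others close together. The ratio was -0.37 at PDL 55 against PDL 15 on all 3 measures. Against control siRNA it was -0.24 with AUF1 siRNA and 0.40 in the library labelled HuR siRNA, where it was -0.18 on fragment mass and -0.70 on long transcripts. The high sum there came from short annotated transcripts, which held 29.8 FPKM against 10.7 with control siRNA, among them ENST00000504361 (583 nt) at 12.6.

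DGCR8 (ENSG00000128191, hg19 chr22:20067755-20099400), which recognises the hairpin for DROSHA, was at 4.77 FPKM at PDL 55, 23.5 with AUF1 siRNA, 14.5 in the library labelled HuR siRNA, 14.7 with control siRNA and 18.6 at PDL 15. The PDL 55 value comes from 2 unspliced assembled transcripts alone, with the annotated ones at 0 and 5 of the 13 listed marked FAIL, and is not a level of the mRNA. The bounds with AUF1 siRNA, 21.1 to 25.9, lay above those with control siRNA, 10.8 to 18.7. The pair of full-length annotated transcripts, ENST00000351989 and ENST00000383024, summed to 8.47 FPKM with AUF1 siRNA, 11.0 in the library labelled HuR siRNA, 8.53 with control siRNA and 8.24 at PDL 15. A 770-nt annotated transcript at the 5′ end, ENST00000457069, held 15.0 of the 23.5 FPKM with AUF1 siRNA.

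DGCR8 carries hairpins of its own, and the microprocessor is known to cut the DGCR8 mRNA at them. Their mature microRNAs are shown because they mark where the gene is a substrate of its own product; sequences here and below are from RefSeq on GRCh38.p14, 5′ to 3′, with the seed (bases 2 to 8) in capitals. On the plus strand miR-3618 lies at chr22:20085797-20085818, miR-1306-5p at chr22:20086072-20086093 and miR-1306-3p at chr22:20086112-20086129 of that build.
hsa-miR-3618: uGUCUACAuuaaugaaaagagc
hsa-miR-1306-5p: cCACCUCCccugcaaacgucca
hsa-miR-1306-3p: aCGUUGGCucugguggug
The 3 seeds differ from one another. Per the labels the sequenced fragments were size-selected far above the length of a mature microRNA, so only host RNA has a value here.

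XPO5 (ENSG00000124571, hg19 chr6:43490072-43543812), the export receptor of the hairpin, was at 20.1 FPKM at PDL 55, 53.3 with AUF1 siRNA, 30.7 in the library labelled HuR siRNA, 20.6 with control siRNA and 29.3 at PDL 15. AUF1 siRNA was the high library, with bounds of 47.2 to 59.3 above those of every other library. The ratio with AUF1 siRNA was 1.09 against control siRNA, 1.12 on fragment mass and 0.84 on long transcripts. Against the PDL 15 library the same 3 measures gave 1.03, 0.97 and 0.11. Long transcripts of XPO5 were at 4.71 FPKM with AUF1 siRNA and only 2.03 with control siRNA, while PDL 15 had 4.77.

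The XPO5 sum was led by ENST00000486936, an annotated transcript of 601 nt at hg19 chr6:43492272-43495942, with 29.01 FPKM with AUF1 siRNA, against 7.28 with control siRNA. It lies where the 3′ end of XPO5 overlaps POLR1C, a subunit gene of RNA polymerases. POLR1C was at 59.7 FPKM with AUF1 siRNA, against 45.8 with control siRNA, and at PDL 15 it was listed at 0 with FAIL transcripts. Its assembled transcript that overlaps XPO5 was at 24.85 FPKM with AUF1 siRNA and 14.36 with control siRNA. The rest of both sums was ENST00000428025, which ends at position 43488048, before XPO5. How far reads of POLR1C enter the XPO5 values was not tested.

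DICER1 (ENSG00000100697, hg19 chr14:95552565-95624347), the cytoplasmic nuclease, was at 27.3 FPKM at PDL 55, 42.0 with AUF1 siRNA, 64.8 in the library labelled HuR siRNA, 16.1 with control siRNA and 20.7 at PDL 15. The AUF1 siRNA library and the one labelled HuR siRNA were high, and the control siRNA library was the lowest. The bounds with AUF1 siRNA (37.2 to 46.7) and in the library labelled HuR siRNA (58.7 to 70.9) lay above those with control siRNA (12.2 to 20.0) and at PDL 15 (18.7 to 22.8). Bounds of the control siRNA and PDL 15 libraries overlapped. At PDL 55 DICER1 had bounds of 24.7 to 29.9, above those at PDL 15, and the ratio of PDL 55 to PDL 15 was 0.71 on summed FPKM, 0.19 on fragment mass and 0.01 on long transcripts.

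With AUF1 siRNA the DICER1 ratio to control siRNA was 1.09 on summed FPKM, 0.87 on fragment mass and 0.84 on long transcripts. In the library labelled HuR siRNA it was 1.59, 1.14 and 1.13, so DICER1 was at least 2-fold above control siRNA on each measure, as were 5.78% of all genes on fragment mass and 8.40% on long transcripts. The comparisons of AUF1 siRNA and of the library labelled HuR siRNA share the control siRNA library. Its long DICER1 transcripts were at 6.23 FPKM against 12.8 at PDL 15. With PDL 15 in place of control siRNA, the DICER1 ratio was 1.18, 0.36 and 0.11 with AUF1 siRNA. In the library labelled HuR siRNA it was 1.67, 0.62 and 0.42 on the same 3 measures, so the 2-fold difference did not hold on mass or long transcripts against that library.

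The long DICER1 transcripts were all assembled from the reads, each 7419 to 8944 nt long. They held 11.3 FPKM at PDL 55, 12.6 with AUF1 siRNA, 17.0 in the library labelled HuR siRNA, 6.23 with control siRNA and 12.8 at PDL 15. The rest of the sum came from fragments that differed between libraries. ENST00000527416, of 717 nt near the 3′ end, held 16.0 FPKM at PDL 55, 19.4 with AUF1 siRNA and 9.84 with control siRNA. In the library labelled HuR siRNA the fragments were ENST00000529468 (683 nt) at 30.2 FPKM and ENST00000532939 (1607 nt) at 13.8. At PDL 15 no annotated DICER1 transcript was above 0, so a sum over annotated rows alone gives 0 FPKM there and no fold. The antisense gene DICER1-AS1, which overlaps the 5′ end of DICER1, was at 0.711 FPKM at PDL 55, 0.720 with AUF1 siRNA, 0.946 in the library labelled HuR siRNA, 2.27 with control siRNA and 1.93 at PDL 15. Its bounds with AUF1 siRNA and in the library labelled HuR siRNA overlapped those with control siRNA.

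**Figure D2:**
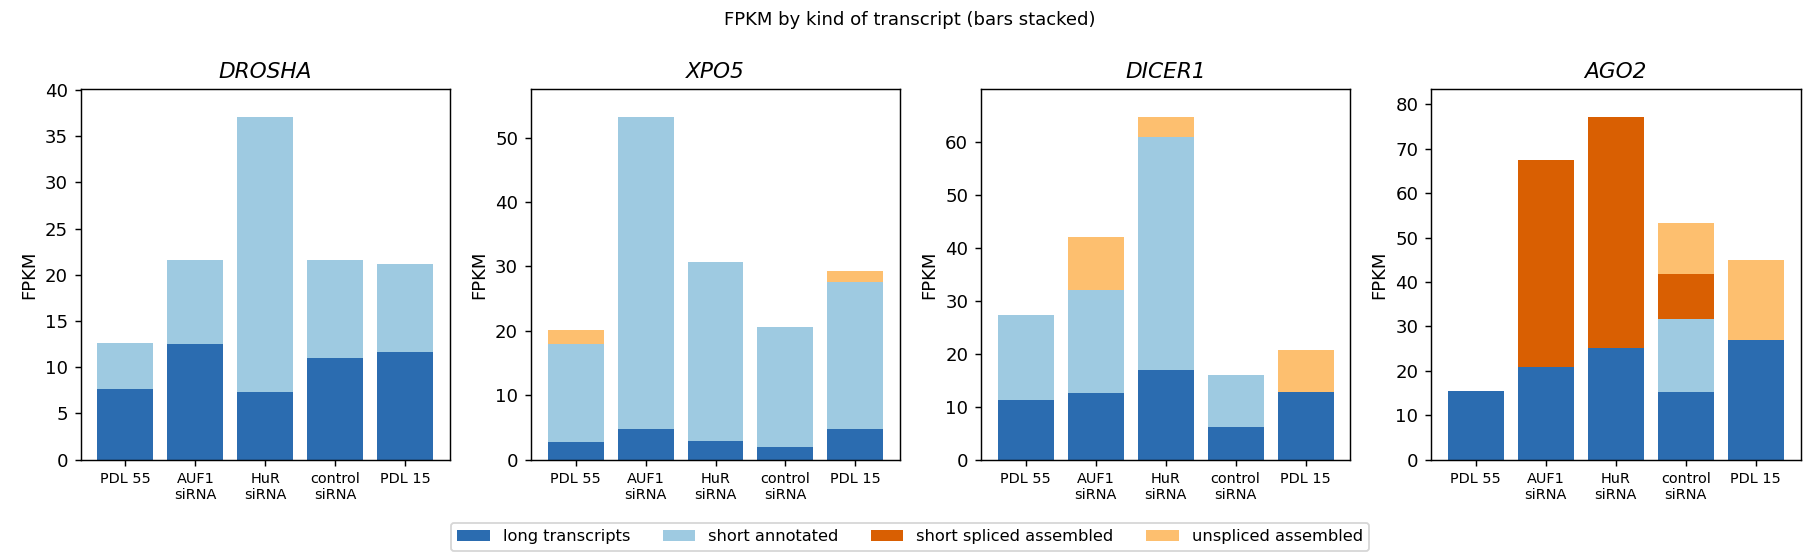
Summed FPKM (y axis) of DROSHA, XPO5, DICER1 and AGO2 in each library (x axis), stacked by kind of transcript. Long DICER1 transcripts range from 6.23 to 17.0 FPKM, and the taller bars with AUF1 siRNA and in the library labelled HuR siRNA are mostly short annotated and unspliced assembled transcripts.

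TARBP2 (ENSG00000139546, hg19 chr12:53894705-53900213), the gene of the DICER1 partner TRBP, is the simplest to read, since a single annotated transcript of 1405 nt, ENST00000456234, held its whole value. It was at 1.22 FPKM at PDL 55, 3.27 with AUF1 siRNA, 2.76 in the library labelled HuR siRNA, 1.19 with control siRNA and 1.85 at PDL 15. The AUF1 siRNA library and the one labelled HuR siRNA were above the other 3. Their bounds did not overlap those of control siRNA or PDL 15. The ratio to control siRNA was 0.72 with AUF1 siRNA and 0.42 in the library labelled HuR siRNA, on a scale whose pseudocount of 1 understates differences at such levels. On fragment mass the ratios were 0.85 and 0.53.

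AGO1 (ENSG00000092847, hg19 chr1:36335409-36389900), an Argonaute with weak slicing activity, was at 3.56 FPKM at PDL 55, 10.2 with AUF1 siRNA, 8.29 in the library labelled HuR siRNA, 5.67 with control siRNA and 8.23 at PDL 15. PDL 55 was the low library, with bounds of 3.21 to 3.91 below those of the 4 others. Its ratio to PDL 15 was -0.69, and it was -0.30 on fragment mass. AGO3 (ENSG00000126070, hg19 chr1:36396319-36522063) was at 13.0 FPKM at PDL 55, 8.42 with AUF1 siRNA, 8.17 in the library labelled HuR siRNA, 7.69 with control siRNA and 13.5 at PDL 15. At PDL 55 its long transcripts were at 5.72 FPKM against 11.2 at PDL 15, so the sums were alike while the ratio on long transcripts was -0.69. AGO4 (ENSG00000134698, hg19 chr1:36273773-36323491) was at 3.04 FPKM at PDL 55, 2.68 with AUF1 siRNA, 1.65 in the library labelled HuR siRNA, 1.34 with control siRNA and 1.82 at PDL 15. Its full-length transcript ENST00000373210 was at 1.14 FPKM at PDL 55 and 1.82 at PDL 15, the other direction from the sum. AGO4, AGO1 and AGO3 lie next to each other on chromosome 1. With AUF1 siRNA against control siRNA, the AGO1 ratio was 0.51 on summed FPKM, 0.32 on fragment mass and 0.35 on long transcripts. For AGO3 the same measures gave -0.12, 0.30 and 0.69, and for AGO4 they gave 0.41, -0.41 and -0.28, so the sign of both depended on the measure. In the library labelled HuR siRNA the 3 measures gave 0.13, -0.42 and -0.35 for AGO1, and -0.28, -0.04 and 0.32 for AGO3. For AGO4 they gave -0.18, -0.07 and -0.01, and the bounds of all 3 genes overlapped those of control siRNA.

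AGO2 (ENSG00000123908, hg19 chr8:141541264-141645718), the Argonaute that cuts well-matched targets, was at 15.5 FPKM at PDL 55, 67.6 with AUF1 siRNA, 77.3 in the library labelled HuR siRNA, 53.3 with control siRNA and 45.0 at PDL 15. PDL 55 stood well below the rest, with bounds of 14.2 to 16.7 against 38.4 to 51.6 at PDL 15. The ratio of PDL 55 to PDL 15 was -1.15, and -1.39 on fragment mass, but -0.59 on long transcripts, which were at 15.5 FPKM at PDL 55 and 27.0 at PDL 15. Set against control siRNA, the ratio at PDL 55 was -1.80 on summed FPKM, 0.08 on mass and close to 0 on long transcripts. Against control siRNA the ratio was 0.10 with AUF1 siRNA and 0.18 in the library labelled HuR siRNA, and the bounds overlapped in both. Much of the sum was in short transcripts, which differed between libraries. A 302-nt assembled transcript at the 5′ end held 46.7 FPKM with AUF1 siRNA and 52.1 in the library labelled HuR siRNA. At PDL 15 unspliced assembled transcripts held 18.0 of the 45.0 FPKM, and at PDL 55 they held 0. The rest of the sum in these libraries was the long transcripts, under 2-fold apart.

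AGO2 also extended past its annotated 3′ end. At PDL 15 an assembled transcript of 14582 nt at 11.7 FPKM reached 11010 bases beyond it, through hg19 chr8:141530254-141541263. AGO2 transcripts also entered the region at PDL 55, where assembled transcripts of 6248 and 6441 nt reached as far as position 141538395. With control siRNA an assembled AGO2 transcript of 175 nt reached as far as 141536339. In the 4 libraries other than PDL 15 the region also held separate assembled transcripts that were not joined to AGO2, and their fragment mass was 70.1 at PDL 55, 68.4 with AUF1 siRNA, 65.8 in the library labelled HuR siRNA and 89.4 with control siRNA. Added to AGO2, they bring its fragment mass to 141.1 at PDL 55, 149.4 with AUF1 siRNA, 161.4 in the library labelled HuR siRNA and 151.9 with control siRNA, against 232 at PDL 15. On that basis the ratio of PDL 55 to PDL 15 was -0.41 and no longer 2-fold. The ratio of control siRNA to PDL 15 was then -0.16, against -1.42 without the region. Whether the region belongs to the AGO2 mRNA was not tested.

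**Figure D3:**
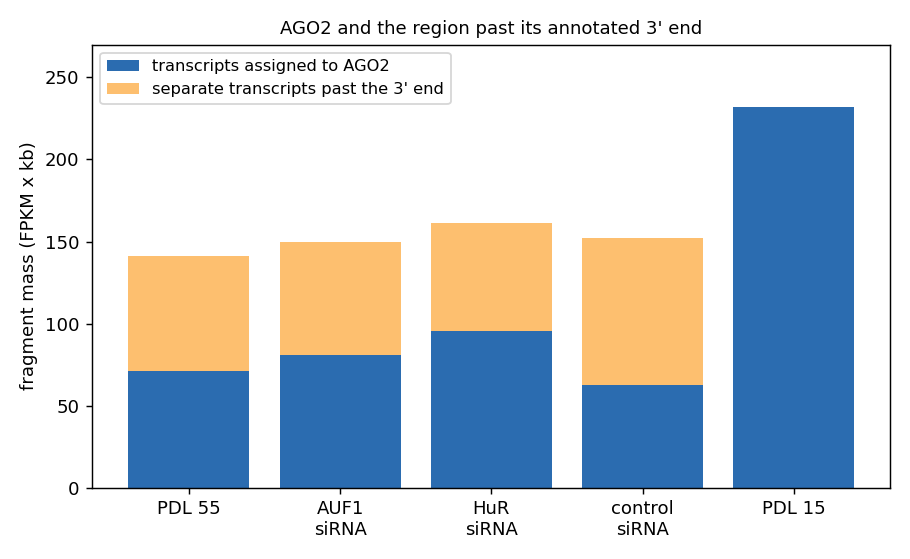
Fragment mass of AGO2 (y axis, FPKM times kb) in each library (x axis), with separate assembled transcripts in the region past its annotated 3′ end stacked on top. The total is 141.1 to 161.4 in 4 libraries and 232 at PDL 15, where the region is part of the AGO2 transcript.

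Read over all 8 genes kept, PDL 55 against PDL 15 had 1 gene at least 2-fold lower, AGO2, and 0 higher. Of all 13864 genes kept 10.0% were that much lower and 9.01% higher. The median ratio of the 8 was -0.11, where that of all genes is 0 by construction after a deposited median of -0.33 was taken off. On long transcripts 7 of the 8 ratios were below 0 and 0 were at least 2-fold apart, where 14.4% of all genes were, with DICER1 at 0.01. For AUF1 siRNA against control siRNA, 2 of the 8 were at least 2-fold higher, DICER1 and XPO5, and 0 lower, against 9.07% higher and 11.2% lower of all genes. Their median was 0.46 and 6 of the 8 were above 0. For the library labelled HuR siRNA against control siRNA, 1 of the 8 was higher, DICER1, and 0 lower, against 9.70% and 11.6% of all genes, with a median of 0.19.

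AUF1 siRNA against the library labelled HuR siRNA had 0 of the 8 at least 2-fold apart, where 11.3% of all genes were, and the extremes were XPO5 at 0.90 and DROSHA at -0.64. Control siRNA against PDL 15, neither with a knockdown, had 0 of 8 at least 2-fold apart and 23.7% of all genes, with a median of 0.08 over the 8. With PDL 15 in place of control siRNA, AUF1 siRNA again had DICER1 and XPO5 higher, where 8.86% of all genes were, and the library labelled HuR siRNA had DICER1, where 8.38% were.

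**Figure D4:**
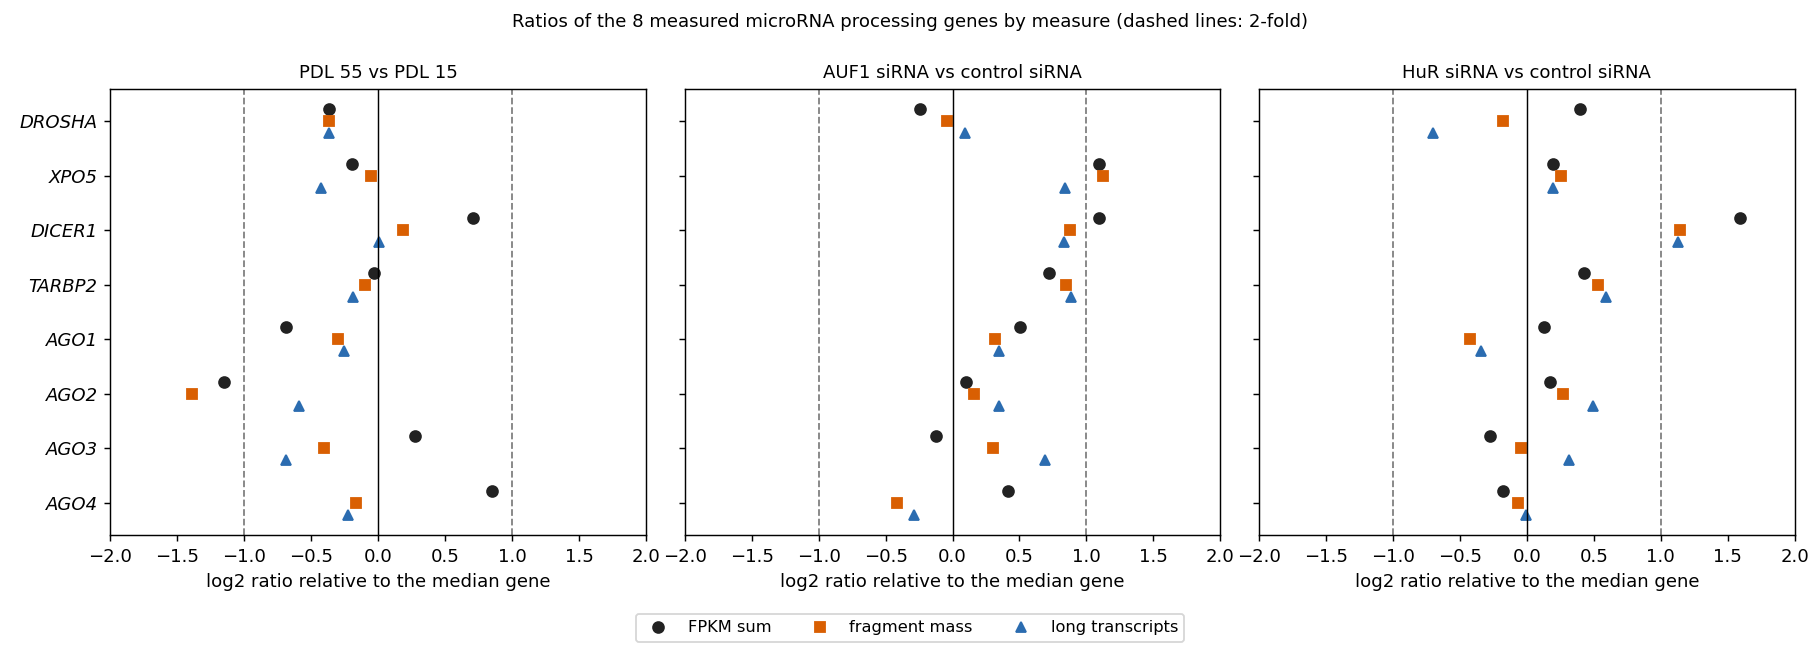
Log2 ratio relative to the median gene (x axis) of the 8 genes kept (y axis) in 3 comparisons, on summed FPKM (circles), fragment mass (squares) and long transcripts (triangles). Dashed lines mark a 2-fold difference, and only DICER1 in the library labelled HuR siRNA lies beyond it on all 3 measures.

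The genes whose pattern over the 5 libraries was nearest to DICER1, by root mean square difference in centred log2 values among 7159 protein-coding genes whose mean reached 5 FPKM, were SH3BGRL3 (0.14), CTSC (0.15) and PLOD3 (0.15). For AGO2 they were CNOT11 (0.04), LATS1 (0.13) and ANPEP (0.14). On fragment mass none of these was among the 3 nearest, which were ZNF384, CLK3 and UBOX5 for DICER1 and PLSCR1, TGM2 and NAPEPLD for AGO2. Among the other microRNA processing genes kept, TARBP2 was nearest to DICER1, with a difference of 0.45 on summed FPKM and 0.32 on fragment mass.

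Cofactors of the pathway were read from lists chosen for their roles. Of 14 microprocessor cofactors, all kept, 2 were at least 2-fold lower at PDL 55 than at PDL 15, and 0 higher, against 10.0% lower and 9.01% higher of all genes. On fragment mass 2 were lower as well, against 9.51% of all genes. The 2 lower on summed FPKM were HNRNPA1, which binds the loop of some primary hairpins, at 46.4 FPKM against 160.0, and SRRT, which links the cap-binding complex to the microprocessor, at 10.7 against 28.9. With AUF1 siRNA against control siRNA, KHSRP, a protein that promotes processing of a subset of precursors, was higher at 24.6 FPKM against 7.42. METTL3, the enzyme that methylates adenosine in primary transcripts, was listed at 0 with AUF1 siRNA, against 7.89 with control siRNA. It was at 11.8 at PDL 55, 13.3 in the library labelled HuR siRNA and 17.9 at PDL 15, and a listed 0 can be a failed estimate. In the library labelled HuR siRNA, DDX17, a helicase of the microprocessor, was higher at 131.0 FPKM against 48.0 with control siRNA, and it was at 153.4 at PDL 15. On fragment mass its ratio to control siRNA was 0.76, under 2-fold. Of 10 export and DICER1 partner genes kept from 13, 0 were higher and 3 lower at PDL 55, against the same 9.01% and 10.0% of all genes. On fragment mass 1 was lower, against 9.51% of all genes. The 3 lower on summed FPKM included TUT4, a uridylating enzyme (12.7 FPKM against 44.4). The others were the RNase gene ZC3H12A (0.341 against 3.06) and PRKRA, the gene of the DICER1 partner PACT (4.14 against 13.7). Their ratios on fragment mass were -0.68 for TUT4 and -0.97 for PRKRA, both under 2-fold, while ZC3H12A was still 2-fold lower. DIS3L2, the exonuclease that degrades uridylated precursors, had 14.5 FPKM with AUF1 siRNA and 14.2 in the library labelled HuR siRNA, against 26.9 with control siRNA and 17.2 at PDL 15. Its fragment mass was 32.5 with AUF1 siRNA and 29.3 in the library labelled HuR siRNA, against 27.4 with control siRNA, so the 2-fold difference did not hold on mass.

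Of 16 genes of Argonaute loading and silencing kept from 20, 0 were higher and 3 lower at PDL 55, again beside 9.01% and 10.0% of all genes. On fragment mass 1 was lower, beside 9.51% of all genes. TNRC6A, a scaffold that Argonautes bind, was at 19.3 FPKM against 116.3, with a ratio of -2.20 on summed FPKM and -0.71 on fragment mass. LIMD1, which joins Argonaute to the cap, was at 14.1 against 54.0, and the TNRC6A paralogue TNRC6C at 4.03 against 12.6, with ratios on fragment mass of -2.04 for LIMD1 and -0.69 for TNRC6C. Against control siRNA 4 of the 16 were higher with AUF1 siRNA, against 9.07% of all genes, and 3 in the library labelled HuR siRNA, against 9.70%. On fragment mass these counts were 2, against 5.21% of all genes, and 1, against 5.78%. With PDL 15 in place of control siRNA, on summed FPKM, they were 1, against 8.86% of all genes, and 1, against 8.38%. ZSWIM8, part of a ubiquitin ligase that removes Argonaute on highly complementary targets, was at 29.6 and 29.1 FPKM in those libraries, against 3.17 with control siRNA. TNRC6C was at 14.3 and 15.5 in them, against 4.57 with control siRNA, and MOV10, a helicase that binds Argonaute, at 29.8 with AUF1 siRNA against 11.9. On fragment mass the TNRC6C ratios to control siRNA were 0.42 with AUF1 siRNA and 0.49 in the library labelled HuR siRNA, and that of MOV10 with AUF1 siRNA was 0.88. FKBP4, a cochaperone of HSP90, was at 37.8 and 29.02, against 5.68 with control siRNA, with ratios on fragment mass of 1.66 and 0.65. At PDL 15 these were at 11.0 FPKM for ZSWIM8 and 29.1 for FKBP4, so the control siRNA library had the lowest FKBP4 sum of the 5.

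The substrates of the pathway were read from 14 long host transcripts of microRNAs kept from a list of 19. At PDL 55, 5 were at least 2-fold below PDL 15 and 0 above it, where 10.0% of all genes were that much lower and 9.01% higher, and the list median was -0.57. On fragment mass 6 were lower, against 9.51% of all genes, and 0 higher. CARMN, host of miR-143 and miR-145, was at 1.36 FPKM at PDL 55 and 54.8 at PDL 15, with 17.7 with control siRNA. MIR155HG was at 0.891 FPKM at PDL 55, against 19.4 at PDL 15. MIR99AHG was at 5.75 FPKM at PDL 55 and 42.2 at PDL 15, while MIR100HG, the host of a paralogous cluster, was at 328.4 and 608.1, with ratios of -2.35 and -0.56. The paralogous clusters are shown because their products share seeds although their hosts differed in ratio, and the products of CARMN and MIR155HG because these hosts had the lowest ratios.
MIR99AHG, hsa-miR-99a-5p: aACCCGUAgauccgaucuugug
MIR100HG, hsa-miR-100-5p: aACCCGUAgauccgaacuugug
MIR99AHG, hsa-let-7c-5p: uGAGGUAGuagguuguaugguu
MIR100HG, hsa-let-7a-5p: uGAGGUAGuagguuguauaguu
MIR99AHG and MIR100HG, hsa-miR-125b-5p: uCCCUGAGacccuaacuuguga
CARMN, hsa-miR-143-3p: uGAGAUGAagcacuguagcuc
CARMN, hsa-miR-145-5p: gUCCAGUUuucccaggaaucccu
MIR155HG, hsa-miR-155-5p: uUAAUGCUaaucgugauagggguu
MIR34AHG, hsa-miR-34a-5p: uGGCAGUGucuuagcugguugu
MIR34AHG, host of the p53-induced miR-34a, is shown because it differed between AUF1 siRNA and the library labelled HuR siRNA. It was at 78.2 FPKM in the former and 23.0 in the latter, a ratio of 1.84. Its level was 36.7 with control siRNA and 45.1 at PDL 15. Against control siRNA, DNM3OS was lower with AUF1 siRNA, at 1.91 FPKM against 5.61, and MIR4435-2HG was higher in the library labelled HuR siRNA, at 1346 against 423.5. A host level is that of the precursor RNA and was not compared with mature microRNA.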

How the data were processed

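Total RNA of WI-38 cells, polyadenylated or not, was depleted of rRNA, amplified and sequenced, per the labels' protocols. TopHat2 2.0.6, Cufflinks 2.0.2 and Cuffdiff are named in the submitters' processing notes, with hg19; the annotation release is not given in the sources used here. The authors deposited 1 table per library with, per the file headers, an FPKM value, its 95% bounds, a coverage signal and a status for each transcript, annotated or assembled from the reads. The number of reads is not given, so depth is known only through coverage per unit FPKM.

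Transcripts were assigned to genes by the identifiers in the tables, then by GENCODE release 29, a shared gene identifier, or position (at least 50% of the span in 1 gene and under 10% in any other), which placed 98.6% of 160485 annotated transcripts. FPKM and bounds were summed per gene; summed bounds tend to be wider than those of a sum, and they describe the estimate within 1 library. Ratios used a pseudocount of 1 and were taken relative to the median of the 13864 genes kept, of which 939 were listed at 0 in at least 1 library, which can be a failed estimate. Small RNA genes were left out. Each group had 1 library here, so no p-values are given. The members and lists were chosen with earlier results of these data known. Named genes were the 9 members, HNRNPD, ELAVL1 and the nearest genes by pattern. Each list and comparison gave up to 3 more in each direction, at least 2-fold apart with bounds that do not overlap. Of these, RAN, TARDBP and FMR1 (control siRNA against PDL 15) and IPO8 (AUF1 siRNA against the library labelled HuR siRNA) are not described above. MIR100HG, MOV10, POLR1C and DICER1-AS1 were named after their values were seen. Ratios were tested on simulated data. Python 3.11.15, pandas 2.3.3 and matplotlib 3.10.9 were used.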

Additional observations from a re-analysis of the deposited data

How the results depend on the processing

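With 1 library per group, no replicate could be left out. No paired analysis was possible because each group has 1 library and no result comes from a test. Counts of the 8 genes at least 2-fold apart moved as follows. The share of all genes under each alternative is not given here. For PDL 55 against PDL 15 (1 gene) the count was 2 with a pseudocount of 0.1, 2 with no filter on low values and 2 on ratios as deposited. It was 0 on long transcripts only, and 0 on fragment mass with the region past the AGO2 3′ end added. On annotated transcripts only it stayed at 1, but the gene was DICER1, higher at 4.38 with 0 FPKM at PDL 15, while AGO2 was at -0.52. With unspliced assembled transcripts left out, AGO2 was at 15.5 FPKM at PDL 55 and 27.0 at PDL 15, under 2-fold. For AUF1 siRNA against control siRNA (2 genes) the count was 0 with a filter at a mean FPKM of 5, which changes the genes that set the median. DICER1 and XPO5 passed that filter, and their ratios, both 1.09 in the main measure, were then under 2-fold. TARBP2 and AGO4, not counted in the main measure, did not pass it. The count was 1 on annotated transcripts only, on fragment mass, with that AGO2 region added, and with unspliced assembled transcripts left out. It was 0 on long transcripts only. For the library labelled HuR siRNA against control siRNA (1 gene) it was 2 with the 1 annotated transcript of highest mean FPKM. There the DICER1 ratio turned to -3.75, since that transcript, ENST00000527416, was not above 0 in the library labelled HuR siRNA. For AUF1 siRNA against that library (0 genes) it was 1 on annotated transcripts only, with LOWDATA transcripts left out, and with the 1 transcript. For control siRNA against PDL 15 (0 genes) it was 3 on annotated transcripts only, 2 without LOWDATA transcripts, 1 on fragment mass, 3 with the 1 transcript and 1 without unspliced transcripts. The causes were not tested otherwise. Long transcripts, unspliced transcripts and the AGO2 region were chosen after seeing the data. Of the ratios of single genes over all alternatives, 330 kept their direction and side of 2-fold, 16 passed 2-fold only in the alternative, 14 no longer passed it and 93 that did not pass it in the main measure changed sign. The comparisons of AUF1 siRNA and of the library labelled HuR siRNA both rest on the control siRNA library, which had the lowest coverage per unit FPKM.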
